A study of Mus musculus with 16 samples.

Results

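Desmosomes and the adhesion molecules that sit beside them hold epithelial cells together, and 10 of their genes were followed here in RNA sequencing of mouse periodontal ligament, the fibrous tissue between tooth root and jaw bone. The genes were chosen by symbol: the desmogleins Dsg1a, Dsg2 and Dsg3, the desmocollins Dsc2 and Dsc3, the plaque genes Dsp, Jup and Pkp1, the tetraspan gene Perp, and Cdh1. All 10 were found among the 55359 genes of the count table, and all 10 passed the expression filter that left 20953 genes for testing. The samples were 16 libraries from wild-type male C57BL/6J mice aged 9 weeks, in 4 groups of 4. The control mice were untreated. In the ligature group a silk thread was tied around an upper left molar, a model of periodontitis. In the trauma group composite resin was built up on the biting surface of the same tooth, which overloads it in occlusion. The ligature plus trauma group had both. The time between treatment and sampling is not given in the sources used here. The labels give periodontal ligament as the tissue, and the series title mentions bone tissue. They number the libraries without saying whether each was a separate mouse, so p-values reflect only how these libraries vary, part of which may be technical.

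In a desmosome, desmogleins and desmocollins are the cadherins that reach across the gap between neighbouring cells. Inside the cell their tails bind plakoglobin (Jup) and plakophilins such as Pkp1, and desmoplakin (Dsp) ties this plaque to keratin filaments. Perp is a membrane protein that desmosome assembly in stratified epithelium needs, and Cdh1 is E-cadherin, the cadherin of adherens junctions. Around a tooth these genes are known from the gingival and junctional epithelium, which seal the gum to the tooth, and from the small epithelial cell rests within the ligament, while ligament fibroblasts are joined by other cadherins. In the RefSeq gene list, 9 protein-coding genes follow one another in the order Dsc3, Dsc2, Dsc1, Dsg1c, Dsg1a, Dsg1b, Dsg4, Dsg3 and Dsg2. This run holds 5 of the 10 genes, of which Dsg1a is next to none of the others.

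Total counts were 58458102 to 77468584 per library. The tissue label was checked against 11 ligament fibroblast genes such as Postn and Tnmd, whose summed level was 42740 to 106400 CPM (read counts scaled to a common library total, TMM-adjusted) over all libraries. The keratins that define basal keratinocytes, Krt5 and Krt14, were also present in every library, at 53.6 to 1367 and 578 to 14680 CPM, so that each library held RNA of epithelial type. Library 2 of the ligature group and libraries 2 and 3 of the ligature plus trauma group stood apart in their trend with transcript length. Their rank correlations between gene level and transcript length stood at 0.148, 0.191 and 0.188. The remaining 13 libraries ranged from 0.248 to 0.372. Whether this difference reflects RNA quality was not tested. Skeletal muscle genes summed to 5.06 to 1238 CPM and were highest in library 2 of the ligature group.

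All 10 genes were lower in the libraries with a ligature. The desmogleins Dsg1a and Dsg2 and the desmoplakin gene Dsp were lower in each of the 8 ligature libraries than in any of the 8 libraries without one, a separation that 2.05% of all tested genes showed. Trauma alone changed none of the 10 in the test. Libraries of 1 group also differed widely: control libraries 1 and 2 were above control libraries 3 and 4 for 10 of 10 genes.

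**Figure D1:**
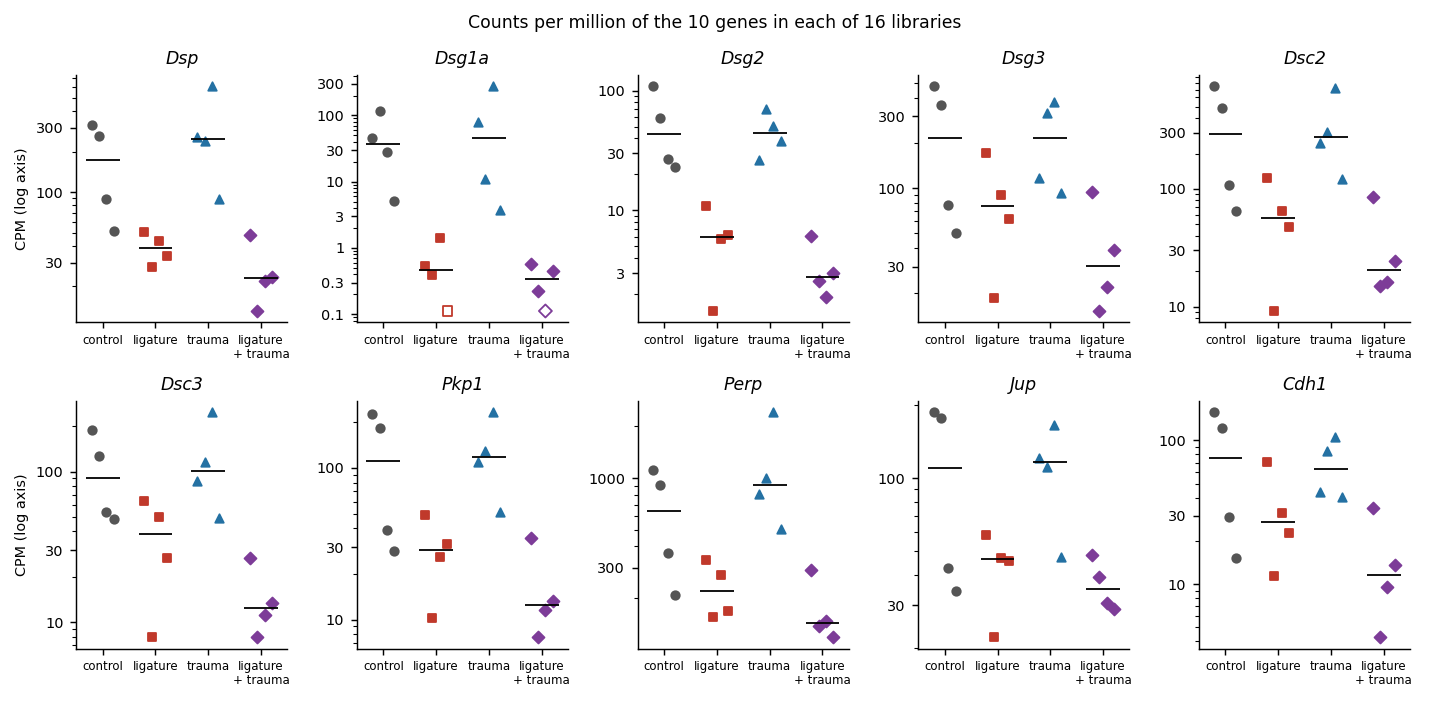
CPM (log axis) of the 10 genes in each of the 16 libraries, by group, with 1 symbol per library in the order 1 to 4 from left to right and a bar at the group median. Open symbols in the Dsg1a panel mark the 2 libraries with 0 counts, drawn below the lowest value above 0. For Dsp, Dsg1a and Dsg2 all ligature symbols lie below all symbols of the control and trauma groups.

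Dsg1a, a desmoglein typical of the upper layers of stratified epithelium, had the widest range. It stood at 45.1, 116, 28.5 and 5.07 CPM in control libraries 1 to 4, and at 80.3, 10.8, 280.3 and 3.70 CPM in the trauma libraries. With the ligature it stood at 0.536, 0.39, 1.42 and 0 CPM, and with ligature plus trauma at 0.566, 0.224, 0 and 0.445 CPM. The ligature libraries were thus close to the limit of detection: the 0 counts in ligature library 4 and in ligature plus trauma library 3 allow up to 3 counts, or 0.0414 and 0.0592 CPM, for counting error only. Dsg1a has the near-identical neighbours Dsg1b and Dsg1c, and how the counting divided reads among them is not given in the sources used here, so that each copy alone is uncertain. The sum of the 3 copies kept the same order: its median was 57.8 CPM in controls and 65.1 CPM with trauma, and 1.85 CPM with ligature and 0.731 CPM with both, and its highest ligature value of 4.62 CPM overlapped its lowest trauma value of 4.18 CPM.

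Dsg2 is the desmoglein found in basal layers and in simple epithelia. Its levels were 110.3, 59.7, 27.0 and 23.2 CPM in controls and 26.3, 71.1, 50.8 and 38.3 CPM with trauma. They were 10.9, 1.44, 5.81 and 6.24 CPM with the ligature and 6.07, 2.59, 1.89 and 3.01 CPM with both. The highest ligature library, at 10.9 CPM, lay below the lowest control, at 23.2 CPM.

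Dsg3 is the desmoglein of basal and spinous layers and a target of the autoantibodies of pemphigus vulgaris. It had 479, 355, 77.1 and 50.1 CPM in controls and 116, 316, 373 and 93.2 CPM with trauma. It had 170 CPM in ligature library 1, against 18.5, 89.3 and 62.1 CPM in the other three. Ligature plus trauma gave 93.9, 15.2, 21.9 and 38.7 CPM. Its groups overlapped, because the high ligature libraries reached the level of control libraries 3 and 4.

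The desmocollins Dsc2 and Dsc3 pair with the desmogleins across the gap. Dsc2 had 753, 484, 107 and 64.8 CPM in controls, 124, 9.17, 65.4 and 47.5 CPM with ligature, 244, 308, 717 and 122 CPM with trauma, and 85.6, 15.1, 16.2 and 24.4 CPM with both. Dsc3 had 189, 127, 53.5 and 48.7 CPM in controls, 63.7, 7.94, 49.8 and 26.7 CPM with ligature, 86.9, 116, 248 and 48.9 CPM with trauma, and 26.5, 7.92, 11.2 and 13.4 CPM with both. Both desmocollins overlapped between ligature and control, through ligature libraries 1 and 3 and the 2 low controls, while with ligature plus trauma every library was below every trauma library.

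Among the plaque genes, Dsp had 312, 259.6, 88.9 and 51.1 CPM in controls and 50.9, 27.8, 43.3 and 33.7 CPM with ligature. Trauma gave 255, 239.9, 615 and 88.7 CPM, and ligature plus trauma 48.2, 13.1, 22.1 and 23.6 CPM. The highest ligature library and the lowest control were almost equal for Dsp, at 50.9 and 51.1 CPM. Jup, which also binds the tail of Cdh1 in adherens junctions, had 187, 178, 42.6 and 34.3 CPM in controls and 58.3, 22.1, 47.1 and 45.4 CPM with ligature. Jup had 121, 112, 165 and 47.3 CPM with trauma and 48.2, 39.2, 30.5 and 29.0 CPM with both. Its ligature libraries lay near the level of control libraries 3 and 4. Pkp1, the plakophilin of stratified epithelium, had 228, 183, 38.8 and 28.3 CPM in controls, 48.6, 10.3, 25.9 and 31.6 CPM with ligature, 109, 129, 234 and 50.9 CPM with trauma, and 34.6, 7.64, 11.6 and 13.3 CPM with both. It overlapped between ligature and control and not between ligature plus trauma and trauma.

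Perp had 1119, 913, 368 and 209 CPM in controls and 336, 156, 273 and 169.5 CPM with ligature. It had 807, 1005, 2417 and 506 CPM with trauma and 290.1, 139, 147 and 119 CPM with both. The lowest trauma library of Perp, at 506 CPM, was above every ligature library, while the lowest control, at 209 CPM, was not. Cdh1 had 157, 121, 29.4 and 15.2 CPM in controls, 70.8, 11.4, 31.1 and 22.8 CPM with ligature, 43.6, 83.8, 106 and 40.5 CPM with trauma, and 33.9, 4.27, 9.55 and 13.5 CPM with both. For Cdh1 the lowest control lay within the ligature range.

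Per kilobase of the longest annotated transcript, which allows levels of different genes to be set side by side, Perp was highest in controls at 334 ± 222 CPM per kb (SD, n = 4). Dsc2 followed at 76.1 ± 70.6 CPM per kb, and then Dsg3, Jup, Pkp1, Dsc3, Dsp, Cdh1, Dsg2 and Dsg1a, the last at 8.55 ± 8.38 CPM per kb. No neighbours in this order differed beyond 1 SD in controls. In the ligature group Perp was again first, at 119.7 ± 44.0 CPM per kb, and apart from the next gene by more than 1 SD. At the low end Dsg2 was at 1.06 ± 0.667 and Dsg1a at 0.103 ± 0.105 CPM per kb, each apart from its neighbour above by more than 1 SD. With ligature plus trauma the same 2 genes stood last and apart, at 0.588 ± 0.320 and 0.0543 ± 0.0439 CPM per kb. With trauma alone Dsg1a was eighth of the list and Dsg2 last, at 16.5 ± 22.7 and 8.08 ± 3.32 CPM per kb, within 1 SD of their neighbours.

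The ligature was compared with its absence in 2 pairs of groups that share no library: ligature against control, and ligature plus trauma against trauma. The mean of the 2 log2 fold changes, called the average ligature effect here, uses all 16 libraries and was tested in edgeR's quasi-likelihood fit, with p-values adjusted over all 20953 genes by the Benjamini-Hochberg method. All 10 genes fell in it, and none rose. Of all tested genes 10.7% fell, 10.8% rose and 21.5% changed either way. The median log2 fold change of the 10 was -2.39, beside -0.05 over all tested genes. In bulk tissue, fewer epithelial cells and less RNA per cell cannot be told apart.

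Among the cadherins the average log2 fold change was -7.28 ± 1.09 (SE) for Dsg1a, with an edgeR adjusted p of 0.000269. Its size rests on counts near 0 in the ligature libraries. Dsg2 fell by 3.48 ± 0.44 on the log2 scale, an 11.1-fold lower level with an adjusted p of 7.45e-05 in edgeR. Dsc2 fell by 2.91 ± 0.63 and Dsc3 by 2.29 ± 0.45, while Dsg3 fell least of the desmosomal cadherins, by 1.95 ± 0.56, with an edgeR adjusted p of 0.0208. Of the plaque genes, Dsp fell by 2.84 ± 0.44, a 7.16-fold lower level, Pkp1 by 2.50 ± 0.49 and Jup by 1.48 ± 0.36. Perp fell by 2.13 ± 0.39, and Cdh1 by 1.70 ± 0.52 with an edgeR adjusted p of 0.0287. The Cdh1 call was lost, with an adjusted p of up to 0.0677, when any 1 of 7 libraries was left out: controls 1 and 2, ligature 2 and 4, trauma 3, and ligature plus trauma 2 and 3. With limma-voom the calls of Dsg1a and Cdh1 were lost, at adjusted p-values of 0.0693 and 0.0621. Without the 3 libraries of low length correlation Dsg3, Jup and Cdh1 did not pass, at edgeR adjusted p-values of 0.124, 0.0667 and 0.163, and with the length slope of each library as a covariate Dsg3 and Cdh1 did not, at 0.0689 and 0.106.

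**Figure D2:**
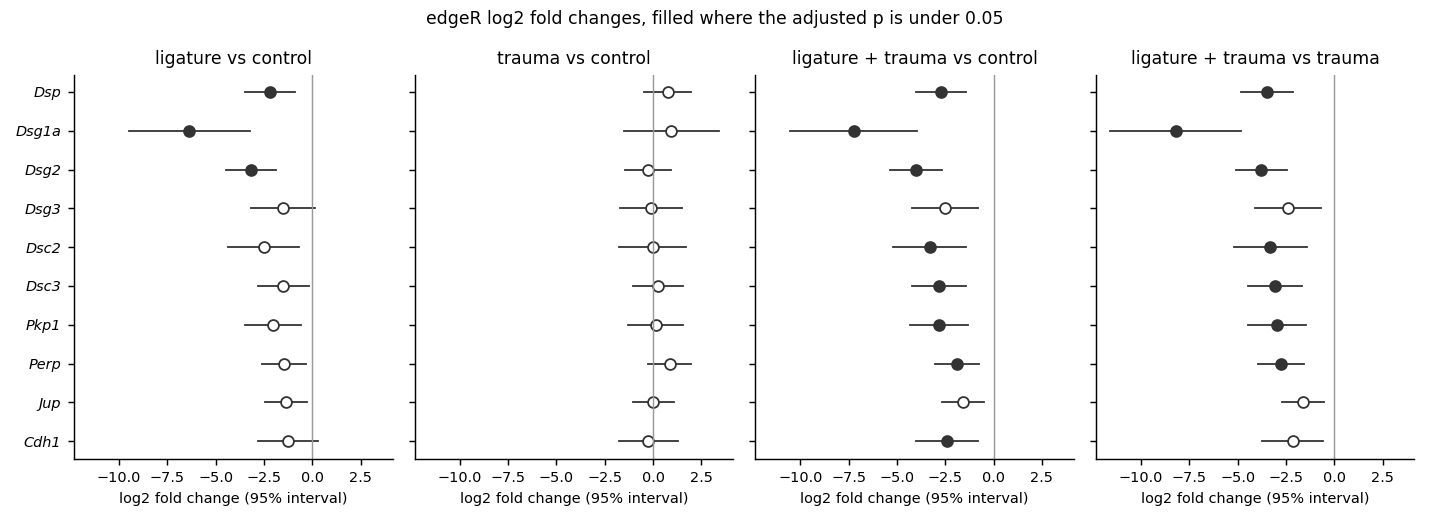
Log2 fold change of each gene with its 95% interval in 4 comparisons of edgeR's fit (horizontal axis), with filled points where the adjusted p was under 0.05. All points of the 3 comparisons with a ligature lie left of 0, and Dsg1a lies farthest left with the widest interval. The trauma points lie on both sides of 0, between -0.24 and 0.95.

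In ligature against control alone, 3 of the 10 genes passed, Dsp, Dsg1a and Dsg2, all lower, and none was higher. Of all tested genes 4.78% were lower, 5.88% higher and 10.7% changed. The groups did not overlap for the same 3, a pattern found for 9.15% of all tested genes. Dsp fell by 2.19 ± 0.60 (log2, SE), with an edgeR adjusted p of 0.0289, Dsg1a by 6.36 ± 1.47 and Dsg2 by 3.18 ± 0.61. The other 7 log2 fold changes ran from -2.51 ± 0.87 for Dsc2 to -1.25 ± 0.73 for Cdh1, with edgeR adjusted p-values from 0.0681 (Pkp1) to 0.286 (Cdh1). The Dsp call was lost without either high control or without any 1 of the 4 ligature libraries, with adjusted p-values up to 0.0922. It was also lost with limma-voom, without the 3 libraries of low length correlation and with the length slope covariate, at adjusted p-values of 0.0518, 0.0813 and 0.0948. Leaving out control library 4 raised the count of genes that passed to 6, beside 6.98% of all tested genes. The Dsg1a call was lost with limma-voom at 0.163. DESeq2 passed 7 of the 10, with 17.8% of all genes it tested, adding Dsc2, Pkp1, Perp and Jup at DESeq2 adjusted p-values of 0.0116, 0.0147, 0.0329 and 0.0451.

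In ligature plus trauma against control, 8 of the 10 passed, all lower, and none was higher. Of all tested genes 5.62% were lower, 6.83% higher and 12.5% changed. Dsg3 and Jup did not pass, at log2 fold changes of -2.50 ± 0.81 and -1.59 ± 0.51 with edgeR adjusted p-values of 0.0530 and 0.0528. Dsg2 fell by 4.02 ± 0.63, Dsg1a by 7.25 ± 1.54, Dsc2 by 3.32 ± 0.90, Pkp1 by 2.83 ± 0.71, Dsc3 by 2.82 ± 0.65, Dsp by 2.73 ± 0.61, Cdh1 by 2.40 ± 0.76 and Perp by 1.91 ± 0.54. For Dsp, Dsg1a, Dsg2 and Dsc3 the groups did not overlap, which held for 10.4% of all tested genes. These calls rested on few libraries: 3 genes passed without ligature plus trauma library 2 or 3, 4 without control library 1 or 2, and 5 without ligature plus trauma library 4. Of all tested genes 5.07% and 4.71%, 6.2% and 6.07%, and 12.8% passed in those fits, in that order. Without the 3 libraries of low length correlation 1 of the 10 passed, beside 3.26% of all tested genes, and 2 passed with the length slope of each library as a covariate, beside 5.67%. With limma-voom 5 passed, beside 15.1% of all tested genes. It lost the calls of Dsg1a, Perp and Cdh1, at adjusted p-values of 0.250, 0.0540 and 0.115. All 10 passed in DESeq2, with 20.3% of all genes it tested, and with the stricter expression filter in edgeR, with 17.1%. This comparison and the previous one share the control libraries.

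In ligature plus trauma against trauma, 7 of the 10 passed, all lower, and none was higher. Of all tested genes 3.27% were lower, 2.21% higher and 5.48% changed. Dsg1a fell by 8.20 ± 1.60, Dsg2 by 3.78 ± 0.63, Dsp by 3.49 ± 0.63, Dsc2 by 3.30 ± 0.90, Dsc3 by 3.08 ± 0.66, Pkp1 by 2.96 ± 0.71 and Perp by 2.77 ± 0.56. Dsg3 at -2.40 ± 0.80, Jup at -1.60 ± 0.51 and Cdh1 at -2.16 ± 0.75 did not pass, with edgeR adjusted p-values of 0.101, 0.0853 and 0.115. In DESeq2 these 3 passed too, at adjusted p-values of 0.0145, 0.0205 and 0.0245, so that it called all 10, with 9.42% of all genes it tested, and Jup passed at 0.0267 in edgeR with the compared groups only. With limma-voom the Dsg1a call was lost, at an adjusted p of 0.38. The groups did not overlap for 8 of the 10, against 7.31% of all tested genes. The count of genes that passed was 4 without ligature plus trauma library 2 or 3, beside 2.65% and 2.6% of all tested genes. It was 1 without all 3 libraries of low length correlation, where 1.77% of all tested genes passed.

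Trauma against control asked whether overload without a ligature moved these genes. None of the 10 passed in edgeR's fit, in which 0.00477% of all tested genes passed, and none had an unadjusted p under 0.05. DESeq2 also passed none of the 10. The log2 fold changes ran from -0.24 to 0.95 with a median of 0.07. The direction of that median depended on the setting: it was 1.05 with the length slope covariate and 0.44 with limma-voom, and -0.40 and -0.50 with the epithelial scores described further on, with and without Krt15. It was also -0.21 without control library 3, -0.24 without control library 4 and -0.31 without trauma library 3, and 0.66 without control library 1. None of the 10 passed in any of these fits. Perp had 0.86 ± 0.53, with a 95% interval of -0.26 to 1.98 and an edgeR adjusted p of 0.766, and Dsp had 0.75 ± 0.58, with an interval of -0.47 to 1.98 and an adjusted p of 0.803. The 95% interval was narrowest for Jup, at -1.05 to 1.07, and widest for Dsg1a, at -1.50 to 3.40.

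Ligature plus trauma against ligature asked whether overload moved the genes once a ligature was in place. All 10 log2 fold changes were below 0, from -1.33 to -0.24 with a median of -0.82, and none passed in edgeR's fit, in which 0% of all tested genes passed. Dsg1a, at -0.89 in this fit, was 0.34 with a replicate block and 0.04 with limma-voom. At an unadjusted p under 0.05 there was 1 gene, Dsc3, at -1.33 ± 0.62 with an unadjusted edgeR p of 0.0488 and an adjusted p of 1, and DESeq2 passed none of the 10. No gene of the 10 had ligature plus trauma libraries all below the ligature libraries, as 0.778% of all tested genes did. The difference between the effect of trauma with and without the ligature, the interaction, ran from -1.83 to -0.25, with a median of -0.92. That median was -1.64 with limma-voom, -1.54 with the length slope covariate, and -0.305 and 0.23 with the epithelial scores with and without Krt15, and leaving out 1 library moved it between -1.64 (ligature plus trauma 1) and -0.44 (ligature 1). None of the 10 passed in it, 0% of all tested genes passed, and the lowest unadjusted edgeR p of the 10 was 0.0870, for Dsc3 at -1.59 ± 0.87.

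The 10 genes varied together from library to library. Over 45 pairs of genes, the correlation of log2 CPM after subtracting each group's mean, over the 16 libraries, had a median of 0.87 and ran from 0.24 for Dsg1a with Dsg2 to 0.975 for Dsg3 with Cdh1. Dsg1a was least like the others, at 0.543 with the mean of the other 9, and Dsc2 most, at 0.964. Control library 1 was the highest control for 9 of 10 genes, trauma library 3 the highest trauma library for 9, and ligature plus trauma library 1 the highest of its group for 10. Ligature library 2, one of the 3 libraries of low length correlation, was the lowest of its group for 9. Within the controls the highest library was 3.87 times the lowest for Dsc3 and 22.8 times for Dsg1a, the least and the most of the 10.

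Among 11682 other genes with a mean log2 CPM of at least 2, the 10 with the profile most like the mean of the desmosome and adhesion genes, by the same measure over 16 libraries, had correlations of 0.93 to 0.949. They included Rab10, a small GTPase of vesicle transport, Grhl1, Cers3, Mal2, Moxd1, Slc1a3, Inava, Nectin4 and Ide. Grhl1 is a transcription factor of the epidermis, Cers3 makes ceramides of its barrier, and Nectin4 is an adhesion molecule of epithelial adherens junctions. In the average ligature effect Grhl1 fell by 3.26 ± 0.68 on the log2 scale, Cers3 by 2.62 ± 0.54 and Nectin4 by 2.2 ± 0.50, while Rab10 at -0.48 ± 0.17 did not pass, with an edgeR adjusted p-value of 0.0594. The correlation was taken within groups, so that it does not use the difference between them. All these genes share the libraries and their scaling.

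Ratios of related cadherins within a library are given as a description, with no test, because the pairs were chosen after their values were seen. The log2 ratio of Dsg2 to Dsg3, with 0.1 CPM added to each, was -1.97 ± 0.62 (SD) in the 8 libraries without a ligature and -3.54 ± 0.48 in the 8 with one, with 7 of the 8 ligature libraries below every library without one. The log2 ratio of Dsg1a to Dsg3 was -2.52 ± 1.76 without and -6.89 ± 1.41 with the ligature. Its size depends on the 0.1 CPM added, since Dsg1a was near or at 0 in the ligature libraries. The log2 ratio of Dsc1 to Dsc3 was -3.48 ± 2.11 without and -7.09 ± 1.33 with the ligature. Only 3 of the 8 ligature libraries lay below every library without one for that pair.

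Promoters were searched only for genes of the list outside the run of desmoglein and desmocollin genes, which was left out. Of the genes searched, 2 had a full-length entry in the table of RefSeq promoters, Dsp and Jup, both plaque genes. The 250 bases before each start site (build GRCm38.p6) are shown for these 2 genes because they had such an entry. The size of their fall played no part in the choice, and no link between motif matches and the falls was tested. Capitals mark matches to the GC-rich motif CCNCNCCC, bound by factors of the KLF family, on either strand.
Dsp, chr13:38151044-38151293, plus strand: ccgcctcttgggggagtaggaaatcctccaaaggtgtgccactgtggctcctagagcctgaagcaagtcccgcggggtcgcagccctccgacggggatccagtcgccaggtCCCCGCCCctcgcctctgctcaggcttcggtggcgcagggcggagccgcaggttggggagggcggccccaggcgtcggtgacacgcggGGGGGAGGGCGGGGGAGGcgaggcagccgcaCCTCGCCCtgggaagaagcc
Jup, chr11:100397791-100398040, minus strand: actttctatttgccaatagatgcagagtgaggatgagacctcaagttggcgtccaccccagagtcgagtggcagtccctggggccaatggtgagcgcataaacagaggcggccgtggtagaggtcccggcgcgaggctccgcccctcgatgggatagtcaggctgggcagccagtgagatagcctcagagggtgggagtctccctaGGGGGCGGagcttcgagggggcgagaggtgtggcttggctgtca
Dsp held 5 matches, which begin at -139, -51, -45, -41 and -20 from the start site and of which the middle 3 overlap, and Jup held 1, at -44. Of all 32851 full-length promoters in the table, 45.9% held at least 1. Neither window held the grainyhead motif AACCGGTT, present in 0.116% of promoters, the E-box CAGGTG, present in 17.2%, or the AP-1 motif TGANTCA, present in 6.75%. A match is a run of letters and no measurement of binding.

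The rest of the desmosome was read from 10 further genes, of which 8 passed the expression filter. Of these 6 fell in the average ligature effect, where 10.7% of all tested genes fell. Dsc1 stood at 17.6, 90.6, 4.37 and 2.87 CPM in controls and 23.2, 2.95, 64.5 and 0.231 CPM with trauma, while 5 of the 8 ligature libraries had 0 counts and the highest had 0.302 CPM. Its fitted log2 fold change of -8.45 ± 1.35 had an edgeR adjusted p of 0.000442 and rests on those low counts. The plaque crosslinkers Ppl (periplakin) and Pkp3 fell by 3.50 ± 0.58 and 2.30 ± 0.42 on the log2 scale. Pkp2, the plakophilin of simple epithelia and heart, had 2.06 to 2.79 CPM in controls and 0.742 to 10.5 CPM with ligature and did not pass at 0.83 ± 0.41, nor did Pkp4 at -0.33 ± 0.22, with edgeR adjusted p-values of 0.158 and 0.285. Dsg1c and Dsg4 did not reach the expression filter.

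**Figure D3:**
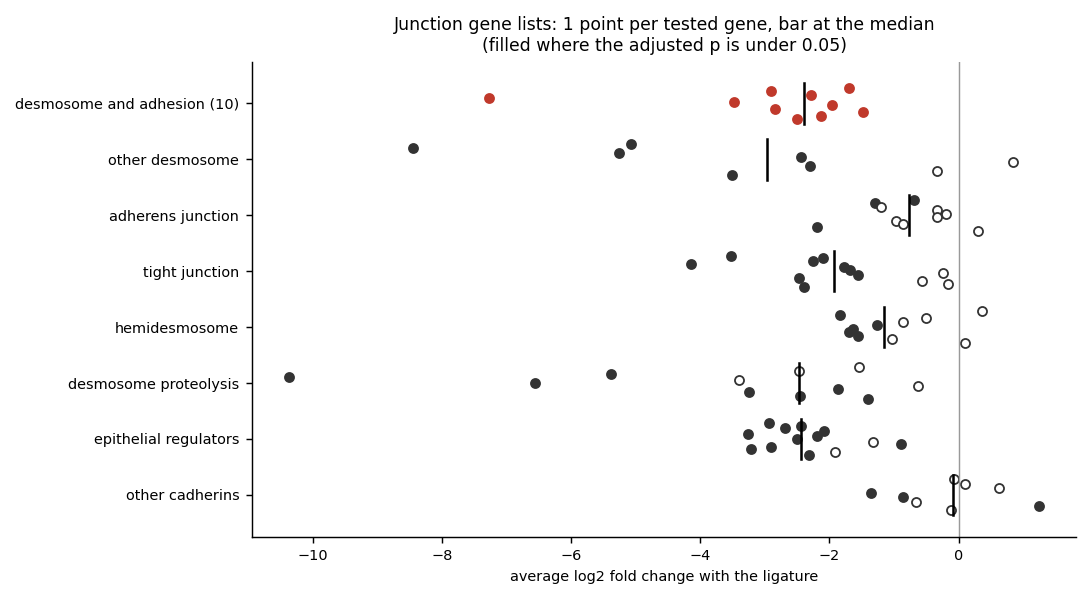
Average log2 fold change with the ligature (horizontal axis) for every tested gene of the 10 and of 7 other lists, with filled points where the edgeR adjusted p was under 0.05 and a bar at each list's median. The desmosome, tight junction, proteolysis and regulator lists lie mostly left of -1, while the other cadherins lie around 0. The point farthest left is Klk5, which had 0 counts in all 8 ligature libraries, so that its fitted value is no measure of size.

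Adherens junctions, which share Cdh1 and Jup with the list above, had 3 of 10 further genes lower and none higher. Of all tested genes 10.7% were lower and 10.8% higher. The 3 adherens junction genes were Afdn at -0.69 ± 0.13 (afadin, which links nectins to actin), Nectin4 at -2.2 ± 0.50 and Ajuba at -1.29 ± 0.32. The catenin gene Ctnnb1, which many cell types use, had 220 to 576 CPM over all libraries and did not pass at -0.20 ± 0.17 with an edgeR adjusted p of 0.425. The median of this list was -0.77. Tight junction genes had 9 of 12 lower and none higher, with a median of -1.94, among them Cldn1 at -2.10 ± 0.37, Ocln at -2.47 ± 0.51 and Cgn at -3.52 ± 0.89. Genes of the hemidesmosome, which fixes basal cells to the basement membrane, had 5 of 10 lower and none higher, with a median of -1.15, led by Col17a1 at -1.84 ± 0.30, Itgb4 at -1.63 ± 0.36 and Lama3 at -1.70 ± 0.41.

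Proteases and inhibitors that act on desmosomes in the epidermis had 7 of 11 lower and none higher, with a median of -2.47. Over all tested genes 10.7% were lower. Spint1, an inhibitor of membrane serine proteases, fell by 2.45 ± 0.39, and the kallikreins Klk7 and Klk14 by 6.57 ± 1.25 and 5.38 ± 1.12. Klk5 averaged 2.49 CPM without a ligature, where it ran from 0 CPM in trauma library 2 to 7.81 CPM in trauma library 3. Control library 4, at 0.0562 CPM, was also near the floor. With 0 counts in all 8 ligature libraries, Klk5 was at least 42.1-fold below that mean with 3 counts per library as the floor. With Klk5 at that bound the list's median was again -2.47. Transcription and splicing regulators of epithelium had 11 of 13 lower and none higher, with a median of -2.45. Klf5, a factor of proliferating keratinocytes, fell by 2.90 ± 0.36 with an edgeR adjusted p of 6.42e-05, Ehf by 2.93 ± 0.53 and the splicing factor Esrp1 by 2.69 ± 0.47.

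Of 7 genes linked with loss of epithelial identity, Vim rose by 1.25 ± 0.22 and Snai1 by 0.48 ± 0.16, none fell, and the median was -0.18. Over all tested genes 10.8% rose and 10.7% fell. Vim codes for the filament protein of fibroblasts, endothelium and leukocytes. Of 8 cadherins of other cell types, Cdh5 of endothelium rose by 1.24 ± 0.19, Cdh2 (N-cadherin) fell by 0.86 ± 0.22 and Cdh19 of Schwann cells fell by 1.35 ± 0.33. Cdh11, the cadherin of fibroblasts and bone-forming cells, did not pass at -0.07 ± 0.21 with an edgeR adjusted p of 0.843.

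Markers of keratinocytes were also lower with the ligature, and those of junctional epithelium were so in part. For the marker counts that follow, 10.7% of all tested genes were lower and 10.8% higher in the average effect. The list called basal held Krt5, Krt14, Krt15, Krt7, Krt8, Krt18, Krt19, Epcam, Sfn and Lgals7, not all of them particular to basal keratinocytes. Of these 10 basal markers 8 were lower with the ligature in the average effect, among them Krt5 by 1.95 ± 0.39 and Krt14 by 2.13 ± 0.42, and of 15 suprabasal markers 14 were lower. Their summed levels were 1185 to 8921 CPM (basal) and 774 to 10430 CPM (suprabasal) in controls, and 3980 to 16770 and 2427 to 24070 CPM with trauma. With ligature they were 1340 to 2130 and 989.9 to 1872 CPM, and with both 685 to 2372 and 484 to 1936 CPM. Of 5 markers of junctional epithelium 2 were lower and none higher: Odam, a secreted protein of ameloblasts and junctional epithelium, fell by 3.37 ± 0.34, and the integrin gene Itgb6 fell by 2.42 ± 0.57. Their sums were 1635 to 7808 CPM in controls, 2942 to 10430 with trauma, 1629 to 3070 with ligature and 1222 to 3706 with both. Over the 8 ligature libraries, which share their scaling, the log2 sum of the 10 genes correlated at 0.755 with the suprabasal, 0.579 with the basal and -0.266 with the junctional sum, and over the 8 libraries without a ligature at 0.95, 0.97 and 0.795. The summed level of the 10 desmosome and adhesion genes was 529.9 to 3579 CPM in controls, 1040 to 5206 with trauma, 265 to 934 with ligature and 244 to 668 with both. Other cell types moved too: 9 of 10 endothelial markers were higher, from sums of 252 to 491 CPM over the 8 libraries without a ligature to 841 to 1127 CPM over the 8 with one. Schwann cell markers had 4 of 9 lower. Neutrophil markers had 6 of 10 higher, but their sums were also high with trauma alone. They were 210 to 737 CPM in controls, 627 to 4754 with trauma, 709 to 1559 with ligature and 724 to 3945 with both. Beyond the covariate fits described next, the part of these cell types in the result was not tested.

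**Figure D4:**
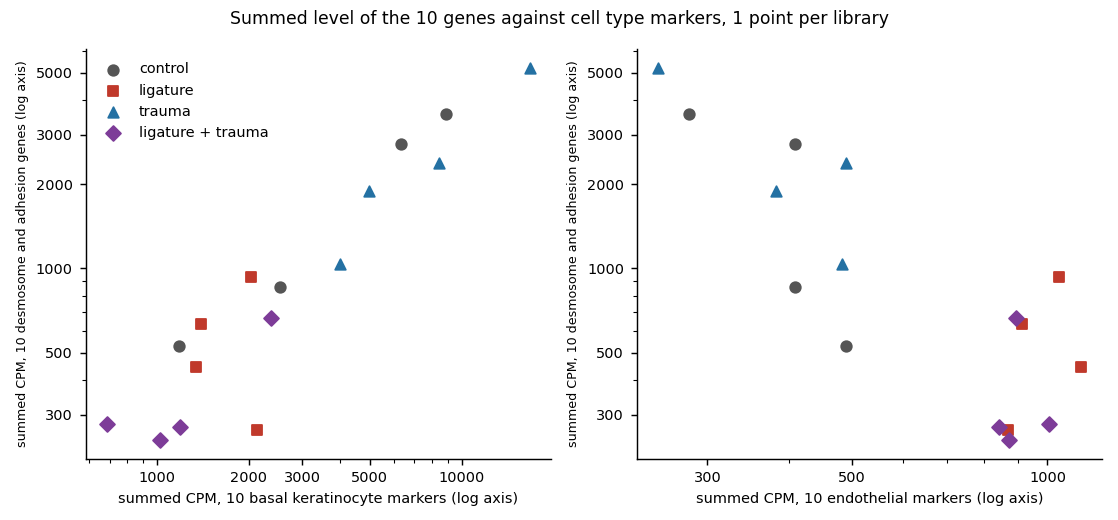
Summed CPM of the 10 desmosome and adhesion genes (vertical, log axis) against the summed CPM of 10 basal keratinocyte markers (left) and 10 endothelial markers (right), with 1 point per library. Trauma libraries 2 and 3 and control libraries 1 and 2 are the highest 4 in both sums, in a different order, and ligature library 2 lies low for its keratinocyte markers. On the right the libraries with and without a ligature fall on separate sides.

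The average ligature effect was then fitted with an epithelial score of each library, the mean centred log2 CPM of Epcam, Krt5, Krt14 and Krt15, as a covariate. Dsg2 passed, at -2.14 ± 0.44 with an edgeR adjusted p of 0.0136, and the other 9 did not. Calls fell over all genes in this fit, to 3.82% of those tested from 21.5% without the score. Dsg1a stood at -3.96 ± 1.29 and Dsp at -0.80 ± 0.35, with edgeR adjusted p-values of 0.106 and 0.238. Dsc2, Dsc3, Pkp1 and Perp lay between -0.74 and -0.27, and Dsg3, Jup and Cdh1 turned to 0.39 ± 0.53, 0.26 ± 0.37 and 0.56 ± 0.46. Krt15 itself stood at -7.89 ± 1.42 in the average ligature effect. With a score of Epcam, Krt5 and Krt14 alone, a choice made after seeing the data, 2 genes passed: Dsg2 at -2.21 ± 0.44 and Dsg1a at -5.17 ± 1.31, with edgeR adjusted p-values of 0.00785 and 0.0284, beside 6.62% of all tested genes. The score differed between the groups itself, so that these fits compare libraries at a score that the groups share only in part. As a description, log2 CPM of Dsg2 minus the mean of the 4 markers was -1.46 ± 1.28 (SD) in controls and -2.66 ± 0.95 with trauma. It was -2.49 ± 1.08 with ligature and -2.83 ± 0.72 with both, near the trauma value. For Dsg1a it was -2.07 ± 0.83, -3.16 ± 2.11, -6.44 ± 2.36 and -6.68 ± 2.03, in the same order of groups. Krt15, at -7.89 in the average ligature effect, is among the 4 markers. Its fall lowers their mean and so raises these values of Dsg2 and Dsg1a in the ligature libraries. The values without Krt15 were not computed.

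**Figure D5:**
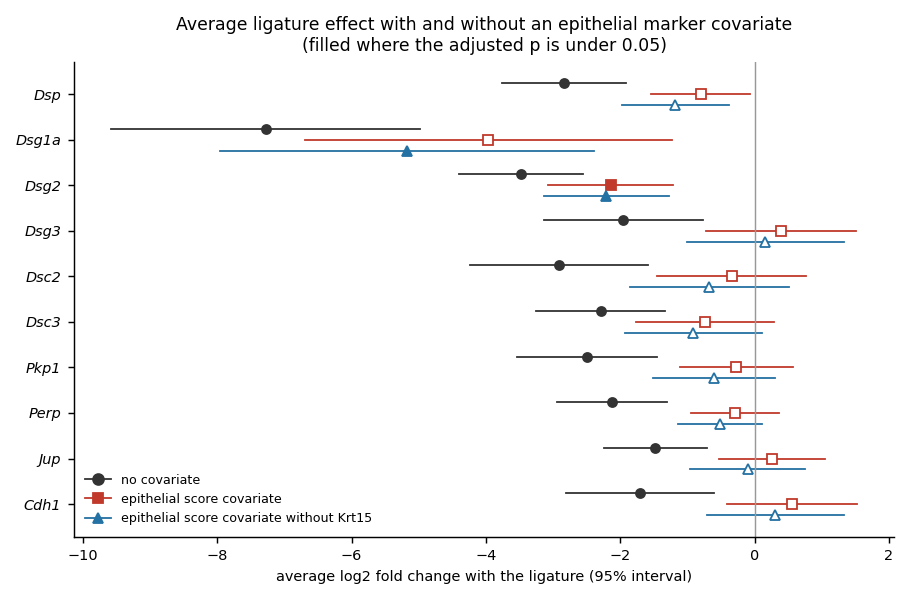
Average log2 fold change with the ligature and its 95% interval (horizontal axis) for each of the 10 genes without a covariate, with the epithelial score of 4 markers, and with the score without Krt15. Points are filled where the edgeR adjusted p was under 0.05. Without a covariate all 10 are filled, and with either score Dsg2 stays filled and most other points move to within 1 of 0.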

How the data were processed

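TRIzol and a column kit were used to extract RNA, and poly(A) RNA was sequenced, per the labels' protocols. The authors deposited 1 table of whole-number read counts for each of 55359 genes and 16 libraries, without normalisation. Tools listed in the submitters' processing notes, with no role or order, are DESeq2 1.32.0, StringTie 2.1.7, HISAT2 2.2.1, FastQC 0.11.9 and Trimmomatic 0.39, and the build is GRCm39. What counted the reads, with which annotation and strand setting, is not given in the sources used here, so overlapping and antisense genes cannot be told apart. Symbols (52083 genes) and transcript lengths came from GENCODE M21. Genes with no symbol held 0.205% of the counts. Promoters came from RefSeq on GRCm38.p6, and no other coordinates are given because the builds differ.

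Tests used the quasi-likelihood method of edgeR 4.0.16 under R 4.3.3, run on those counts after TMM scaling and a filter (minimum count of 10, by group). The fit held all 4 groups (12 residual degrees of freedom). The SE of an edgeR log2 fold change was its size divided by the square root of the F statistic. The 95% intervals were built from that SE, and both are approximate where counts lie near 0, as for Dsg1a. The threshold was 0.05 for the p adjusted by Benjamini-Hochberg over 20953 genes. Alternatives were DESeq2 1.42.0 and its size factors, limma-voom with sample weights (limma 3.58.1), no filter or a stricter one, the compared groups only, a replicate block, 13 libraries, length slope and epithelial score covariates, and each library left out. The code was tested on simulated data. Depth was 58458102 to 77468584 counts a library. No libraries were alike enough to be duplicates (highest correlation 0.948).

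The 10 genes, the lists and the tests were chosen with earlier results of these data known. All 10 genes are named in the comparisons with a ligature. Of other lists, up to 3 genes with the lowest p in the average ligature effect are named, and genes that carry a count of 5 or fewer. Outside that rule, Ctnnb1, Cdh11, Klk5 and the keratins Krt5 and Krt14 were named after their values were seen. Some genes that these rules would name are not reported here.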

Additional observations from a re-analysis of the deposited data

Results flagged for a closer look

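Among 40 sets of 4 libraries (10 genes in 4 groups), 2 had a library far from the other three by Dixon's test at the 95% level, which chance flags in about 1 of 20 sets. Both were library 1 of the ligature plus trauma group. It had 85.6 CPM of Dsc2, against 15.1 to 24.4 CPM in the others, and 290.1 CPM of Perp, against 119 to 147 CPM. That library was the highest of its group for 10 of 10 genes, and its summed basal keratinocyte markers were 2372 CPM, against 685 to 1191 CPM in the others. Without it, 9 of the 10 genes passed in ligature plus trauma against control, beside 11.1% of all tested genes.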

How the results depend on the processing

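DESeq2 called 7 of the 10 genes in ligature against control, where edgeR called 3, limma-voom 1 and the epithelial score covariate 1. The shares of all tested genes were 17.8%, 10.7%, 14.5% and 5.58%, in that order. In ligature plus trauma against control edgeR called 8, and DESeq2 and the stricter filter called 10, beside 12.5%, 20.3% and 17.1% of all genes. Limma-voom called 5, the 13 libraries 1 and the length slope covariate 2, beside 15.1%, 3.26% and 5.67%. The epithelial score called 1 with or without Krt15, beside 2.73% and 5.66%. In ligature plus trauma against trauma, where edgeR called 7, DESeq2 called 10 (9.42% of all genes), the 13 libraries 1 and both epithelial scores 0. Calls over all genes fell too in that comparison, from 5.48% of those tested to 1.77% with the 13 libraries, 0.0525% with the epithelial score and 0.062% with the score without Krt15. In the average effect the epithelial score left 1 and the score without Krt15 left 2 of 10, and the 13 libraries left 7, beside 3.82%, 6.62% and 13.1% of all genes. With 1 library left out at a time the counts were 2 to 6, 3 to 10, 4 to 8 and 9 to 10 in these comparisons, in that order, and 0 to 0 for trauma against control, ligature plus trauma against ligature and the interaction. Of all tested genes 6.58% to 9.83%, 4.71% to 19.9%, 2.6% to 7.02% and 16.3% to 21.8% passed in the first 4 of these comparisons. In the comparisons of ligature with no ligature, the sign changes came with an epithelial score: in ligature against control Dsg3 0.49, Perp 0.010, Jup 0.094 and Cdh1 0.73 (0.16 without Krt15). In ligature plus trauma against control Jup was 0.042. In ligature plus trauma against trauma Dsg3 was 0.29 and 0.38, Jup 0.43 and 0.19 and Cdh1 0.39 and 0.46, with and without Krt15. In the average effect Dsg3 was 0.39 and 0.16, Cdh1 0.56 and 0.31, and Jup 0.26 with Krt15. In the comparisons of trauma, where no gene passed, signs also changed with limma-voom, the length slope and the replicate block. The cause was not tested.

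Libraries of the same number did not deviate together: of 24 pairs 5 correlated above 0.1 (range -0.224 to 0.267). With a replicate block the counts were unchanged at 3, 0, 8, 0, 7, 10 and 0. The shares of all tested genes were 9.94%, 0.00477%, 12.4%, 0%, 4.93%, 20.8% and 0%. Depth limits Dsg1a, whose ligature counts lie near the floor, and the effect of depth on the other 9 was not tested. The ligature 2 and ligature plus trauma 2 and 3 libraries, which differ in length correlation, are also among the lowest for the 10 genes.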
